A study of Saccharomyces cerevisiae with 4 samples.

Results

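The genes described here are those of the budding yeast pheromone response and of mating, 43 genes listed by name, and the values are for the probe of each gene's coding region. Of the 43, 42 had such a probe, 33 had a value on all 4 arrays, 7 had a value on 3 arrays and 2 on a single array, against 4295 of 5738 coding probes with a value on all 4 arrays in the whole series. The experiment was a RIP-chip, in which RNA that came down with a tagged protein is labelled and read on an array beside total RNA of the same cells. Both strains were haploid W303 of mating type a. In one, the RNA-binding protein Whi3 carried a TAP tag and was expressed from its own promoter (Whi3-TAP), and in the other the same tagged protein lacked its RNA recognition motif (whi3-dRRM-TAP, written Whi3-dRRM-TAP), which served as the background control. Each strain is represented by 2 arrays, 1 from each of 2 biological replicates (experiments), from log phase cultures in rich glucose medium. No pheromone treatment is named in the sources used here, so the genes are described at their level in growing cells that had not been exposed to it.

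Haploid yeast cells find a partner by exchanging peptide pheromones. In an a cell, α-factor from the partner binds the receptor Ste2, the receptor releases the βγ complex of a trimeric G protein, and that complex recruits a scaffold and starts a cascade of protein kinases that ends at Fus3 and Kss1. The kinases free the transcription factor Ste12 from its inhibitors Dig1 and Dig2, and Ste12 turns on genes for cell cycle arrest, agglutination, polarised growth and fusion. Whi3 is best known for binding the mRNA of the G1 cyclin Cln3, and in cells that fail to mate it is known to take part in the memory that makes them refractory to pheromone.

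On every array the immunoprecipitate was read in Cy3 and total RNA in Cy5. Signal counted as above background if, after subtraction of the local background, it was over 2 SD of that background. The share of yeast spots that carried no negative quality flag was 79.8% and 86.5% on Whi3-TAP arrays 1 and 2, and 46.4% and 76.7% on Whi3-dRRM-TAP arrays 1 and 2. A single kept spot carried 10 of the 33 genes with complete values on Whi3-dRRM-TAP array 1. In the immunoprecipitate, 30 of 40 genes of the set with a value were above background on Whi3-TAP array 1 and 40 of 40 on array 2, while 7 of 35 and 19 of 40 were so on the control arrays. Total RNA was above background for 18 of 40, 21 of 40, 4 of 35 and 17 of 40 genes in the same order. Among the 33 genes with complete values, 26, 33, 7 and 17 were above background in the immunoprecipitate and 18, 20, 4 and 17 in total RNA. Over all 4295 genes, which also have complete values, the shares above background in the same order were 89.0%, 99.3%, 16.6% and 65.5% in the immunoprecipitate. In total RNA they were 66.3%, 64.7%, 26.3% and 64.5%, so Whi3-dRRM-TAP array 1 was dim for all genes. Of the 33 genes, 10 were above background in total RNA on no array and 4 were above it on all 4. A ratio with a channel that was not above background is given below as measured, and a bound is added where that channel was above background on no array of a group. With 2 arrays a strain, precision is limited by their number.

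The labelled mating type was checked first, in total RNA. Of the 7 a-specific genes, STE2 and BAR1 were above background on 4 of 4 arrays, STE6 (the a-factor exporter) and AGA2 (the a-agglutinin subunit that binds the partner) on 3, MFA2 (a-factor precursor) on 2, and MFA1 (a-factor precursor) and ASG7 on none. None of the 4 α-specific genes was above background on any array. Their signal over the background limit reached 0.28 for the a-factor receptor gene STE3, 0.54 for the α-agglutinin gene SAG1, 0.31 for MF(ALPHA)1 and 0.70 for MF(ALPHA)2 (both α-factor precursors), where 1 is the limit. The receptor gene of a cells was thus detected and that of α cells was not. Of the 7 haploid-specific genes, STE18 was above background on 4 arrays, GPA1, STE4, FUS3 and FAR1 on 3, and STE5 and STE12 on none. These are bulk cultures, so fewer cells with a transcript and less of it per cell cannot be told apart.

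**Figure D1:**
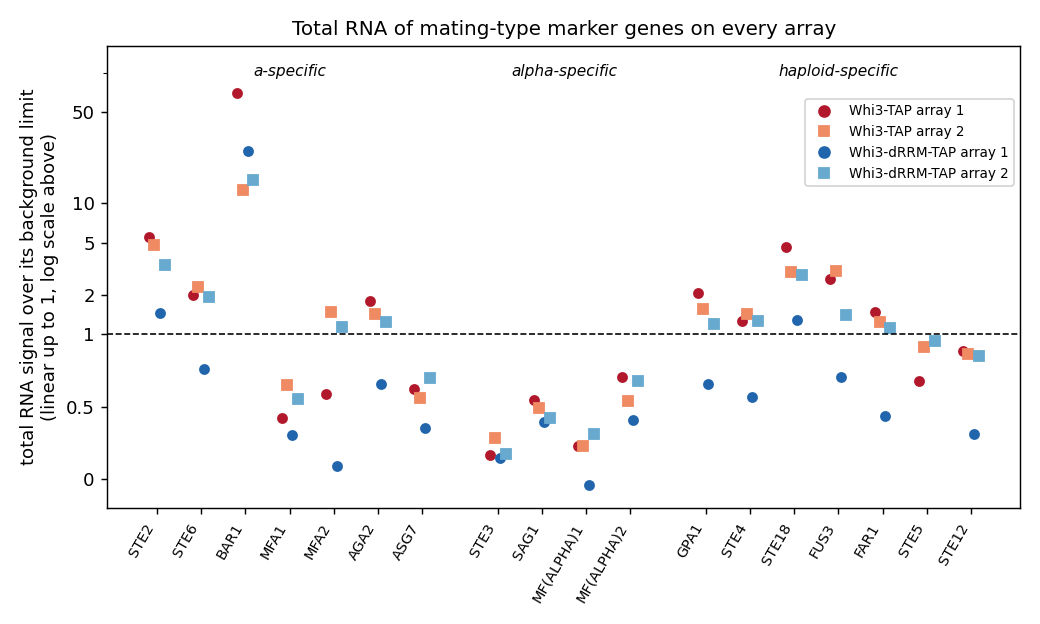
Total RNA signal of 18 mating-type marker genes on each array, divided by the background limit of the same probe (2 SD of local background), with the dashed line at 1. The axis is linear up to 1 and logarithmic above it, each point is 1 array, and no point of the 4 α-specific genes lies above the line.

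To ask about Whi3 itself, the log2 ratio (immunoprecipitate over total RNA) of the control strain was subtracted from that of Whi3-TAP in each experiment, and the mean of both experiments is called the net log ratio. A positive value means more recovery with intact Whi3 than with the control protein. Over the 33 genes its median was -0.03, against -0.09 over all genes, and the range was -1.09 to 2.16. PRM7, STE2 and DIG1 lay past a limit of 1.05, which is the multiple of the SD over genes that the study's methods used to choose targets. That is 3 of 33, where 5.01% of all genes lay above the limit. TEC1 was just short of it at 1.03. No gene of the set lay below the corresponding lower limit of -1.21, where 5.05% of all genes did. With limma and the experiment as a block, none of the 33 genes was higher or lower at an adjusted p of 0.05, and this held for all genes (0% in each direction, smallest adjusted p = 0.0678). At an unadjusted p under 0.05, 6 of the 33 were higher and 3 lower, against 12.8% and 16.5% of all genes. With no block, limma called PRM7 (adjusted p = 0.0374) and STE2 (adjusted p = 0.0470). Fits with 1 array left out had no block and a single array in 1 group, so their calls are not set against these counts. In those fits the net log ratio ran from 1.92 to 2.40 for PRM7 and from 1.23 to 1.55 for STE2. That of DIG1 ran from 0.77 to 1.43.

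The arrays of the groups did not overlap, with both Whi3-TAP arrays higher, for 10 of the 33 genes (26.6% of all genes), and with both lower for 10 (34.2% of all genes). Both counts are close to the background shares. Across the 33 genes, the net log ratios of the experiments had a Pearson r of 0.61 and a Spearman rho of 0.51, the Whi3-TAP arrays an r of 0.95 and the Whi3-dRRM-TAP arrays 0.51. These describe agreement of arrays over genes, which are not independent replicates.

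**Figure D2:**
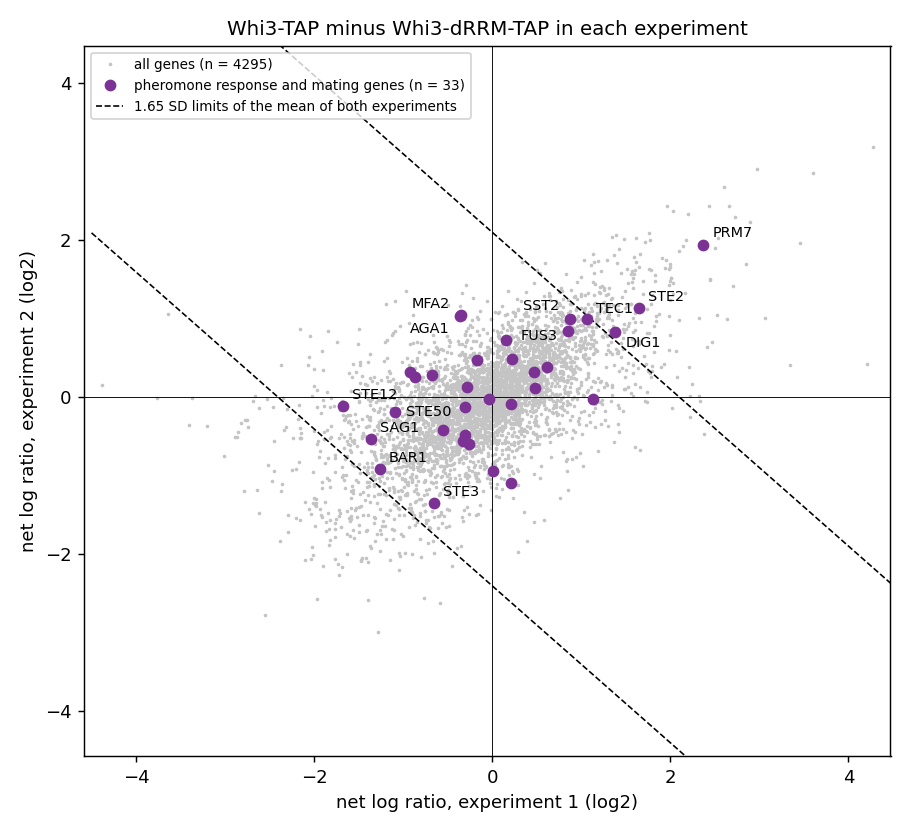
Net log ratio (log2, Whi3-TAP minus Whi3-dRRM-TAP) in experiment 1 against experiment 2 for 4295 genes (grey) and the 33 pheromone response and mating genes (purple), with the genes of large net log ratio and AGA1 and MFA2 named. Dashed lines mark the limits of 1.05 and -1.21 for the mean of both experiments, and PRM7, STE2 and DIG1 lie past the upper line.

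PRM7 (YDL039C, chromosome 4) had the highest net log ratio of the set. It is 1 of the pheromone-regulated membrane protein genes, a class named for induction by α-factor, and its product is little characterised. The next gene on the chromosome is BSC1 (YDL037C), which the study lists among its Whi3 targets. Whether the PRM7 probe shares signal with a BSC1 transcript was not tested. Its log2 ratio was 3.84 and 3.36 on Whi3-TAP arrays 1 and 2, and 1.47 and 1.42 on Whi3-dRRM-TAP arrays 1 and 2. Both Whi3-TAP values were far above both control values, and PRM7 was above background in the immunoprecipitate on all 4 arrays and in total RNA on all but Whi3-dRRM-TAP array 1. The net log ratio was 2.37 and 1.94 in experiments 1 and 2, with a mean of 2.16 ± 0.30 (SD, n = 2) and a 95% interval of 1.54 to 2.78. Limma gave an adjusted p of 0.0678 for it. All 12 spots were kept on each array, and the lowest Whi3-TAP spot (2.95) was higher than the highest Whi3-dRRM-TAP spot (1.93). In raw signal the immunoprecipitate was at 14298 and 48738 in Whi3-TAP and 1759 and 3345 in Whi3-dRRM-TAP, while total RNA was at 1147, 3542, 462 and 1470 in the same order. On Whi3-TAP array 2, 32.2% of the immunoprecipitate pixels of PRM7 were saturated, so that signal is a lower limit. With this and with total RNA within background on Whi3-dRRM-TAP array 1, the ratios of PRM7 are as measured and no fold is given.

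Among the receptors and the G protein, STE2 had the highest net log ratio. STE2 (YFL026W, chromosome 6), the α-factor receptor, had log2 ratios of 1.99 and 1.78 in Whi3-TAP and 0.34 and 0.65 in Whi3-dRRM-TAP. The groups did not overlap, and STE2 was above background in both channels on all 4 arrays. On Whi3-dRRM-TAP array 1 it was only just so in the immunoprecipitate, at 1531 against a limit of 1456, with total RNA at 1362 against 944. The net log ratio of STE2 was positive in both experiments, with a mean of 1.39 ± 0.37 (SD, n = 2), an interval of 0.74 to 2.04, 2.62-fold and place 91 (limma adjusted p = 0.0736). Raw immunoprecipitate signal of STE2 was 11022 and 25866 in Whi3-TAP against 1531 and 4253 in Whi3-dRRM-TAP, and total RNA was 3588 and 5680 against 1362 and 4580.

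The G protein genes took different directions, and none passed the test. GPA1, the α subunit that holds the pathway off, had log2 ratios of -0.69 and -0.71 in Whi3-TAP and -0.38 and -0.22 in Whi3-dRRM-TAP. STE4, the β subunit, had 0.05 and -0.28 against 0.36 and -0.16, and the groups overlapped. STE18, the γ subunit, had -0.32 and -0.45 against -0.94 and -0.83. GPA1 and STE18 thus had normalized ratios below 0 on every array, with Whi3-TAP the lower group for GPA1 and the higher for STE18. On Whi3-dRRM-TAP array 1 GPA1 was above background in neither channel, and its 8 spots ran from -1.42 to 0.49. STE3 is the a-factor receptor of α cells, and its ratios were 0.74 and -0.03 in Whi3-TAP and 1.39 and 1.32 in Whi3-dRRM-TAP. STE3 had the second lowest net log ratio of the set, -1.01 ± 0.50 (SD, n = 2), but it was above background in the immunoprecipitate on Whi3-TAP array 2 only and in total RNA on no array. Its net log ratio was -0.62 without Whi3-TAP array 2 and -0.23 with no background correction.

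**Figure D3:**
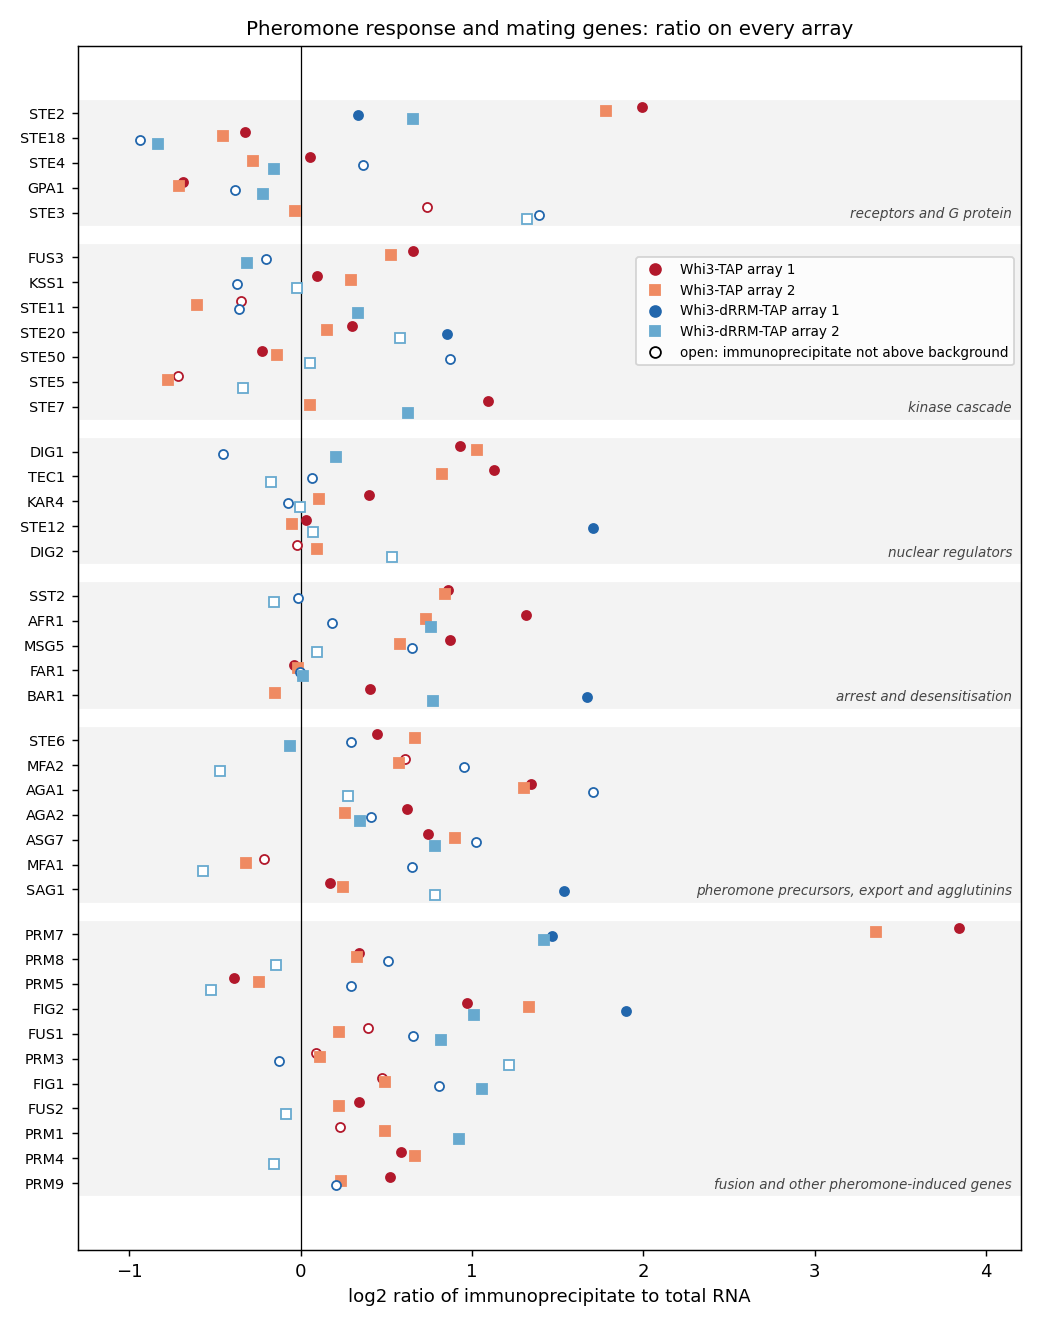
Log2 ratio of immunoprecipitate to total RNA of the 40 pheromone response and mating genes with a value on at least 3 arrays, grouped by role and ordered by net log ratio, with those measured on 3 arrays last in their group. Each symbol is 1 array (red and orange, Whi3-TAP arrays 1 and 2; dark and light blue, Whi3-dRRM-TAP arrays 1 and 2), open symbols mark arrays where the immunoprecipitate was not above background, and only PRM7 exceeds 2.

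In the kinase cascade, FUS3 had the highest net log ratio. FUS3 (YBL016W), the MAP kinase that drives mating, had log2 ratios of 0.66 and 0.53 in Whi3-TAP and -0.20 and -0.31 in Whi3-dRRM-TAP. The net log ratio was 0.85 ± 0.01 (SD, n = 2; limma adjusted p = 0.0966). It rested on 1 to 3 kept spots an array and was above background in neither channel on Whi3-dRRM-TAP array 1. The net log ratio of FUS3 became 0.46 with median centring, 0.43 with all spots kept and 0.18 with the deposited log ratios. The median over all genes was -0.21, -0.06 and -0.48 in those settings, against -0.09 in the main fit. KSS1, the MAP kinase shared with filamentous growth, had 0.10 and 0.30 against -0.37 and -0.02, and it was above background in the immunoprecipitate of no Whi3-dRRM-TAP array. STE20 and STE50, upstream in the cascade, had the lower values in Whi3-TAP. STE20, the PAK-family kinase that starts the cascade, had 0.30 and 0.16 in Whi3-TAP and 0.85 and 0.58 in Whi3-dRRM-TAP. STE50, the adaptor of Ste11, had -0.22 and -0.14 against 0.87 and 0.06, with a net log ratio of -0.64 ± 0.64 (SD, n = 2) and a single kept spot on Whi3-dRRM-TAP array 1. STE11, the MAP kinase kinase kinase, had -0.35 and -0.61 against -0.36 and 0.34, and the groups overlapped. The scaffold gene STE5 (-0.72 and -0.78 in Whi3-TAP, -0.33 on Whi3-dRRM-TAP array 2) and the MAP kinase kinase gene STE7 (1.10, 0.05 and 0.62) had no value on Whi3-dRRM-TAP array 1 and were not tested.

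Of the nuclear regulators, the repressor DIG1, the partner factor TEC1 and KAR4 were higher on both Whi3-TAP arrays than on both control arrays, and STE12 itself was lower. DIG1 (YPL049C, chromosome 16) had log2 ratios of 0.93 and 1.03 in Whi3-TAP and -0.45 and 0.21 in Whi3-dRRM-TAP. The net log ratio was 1.38 and 0.82 in experiments 1 and 2, with a mean of 1.10 ± 0.40 (SD, n = 2), and an interval of 0.44 to 1.76 (limma adjusted p = 0.0907). On Whi3-dRRM-TAP array 1 DIG1 had 3 kept spots, of which the lowest was at -1.49 and the highest at 0.17, and it was above background there in neither channel. Its place past the limit leaned on that array. Without Whi3-dRRM-TAP array 1 the net log ratio of DIG1 was 0.77, under the limit. It was also under the limit with the median of the spots (0.85) and with the deposited log ratios (0.53). In the deposited log ratios the median over all genes was -0.48.

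TEC1 (YBR083W, chromosome 2), which joins Ste12 at genes of filamentous growth, had log2 ratios of 1.13 and 0.82 in Whi3-TAP and 0.07 and -0.17 in Whi3-dRRM-TAP. The groups did not overlap, and the net log ratio was 1.03 ± 0.05 (SD, n = 2; limma adjusted p = 0.0817). TEC1 was above background in the immunoprecipitate of both Whi3-TAP arrays but of no Whi3-dRRM-TAP array, and its immunoprecipitate signal was at least 1.76-fold higher in the former. STE12 had 0.03 and -0.05 in Whi3-TAP and 1.71 and 0.07 in Whi3-dRRM-TAP. The high value came from 1 spot, and the net log ratio of -0.90 ± 1.10 (SD, n = 2) was -0.08 without Whi3-dRRM-TAP array 1 and -1.72 without Whi3-dRRM-TAP array 2. KAR4, a factor for genes of nuclear fusion, had 0.40 and 0.11 against -0.07 and -0.00. DIG2, the other Ste12 inhibitor, had -0.02 and 0.09 in Whi3-TAP and 0.53 on Whi3-dRRM-TAP array 2, with no value on array 1.

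The genes of arrest and desensitisation held both a high and a low end. SST2 (YLR452C) encodes the RGS protein that turns Gpa1 off, and its log2 ratios were 0.86 and 0.84 in Whi3-TAP and -0.01 and -0.15 in Whi3-dRRM-TAP. The net log ratio was 0.94 ± 0.08 (SD, n = 2; limma adjusted p = 0.0886). SST2 was above background in the immunoprecipitate of both Whi3-TAP arrays and of neither control array (a signal at least 1.41-fold higher), and it was above background in total RNA on no array. With the deposited log ratios its net log ratio was 0.32 (median of all genes -0.48), and with median centring 0.62 (median of all genes -0.21). FAR1, the inhibitor that arrests the cycle in G1, had mean ratios between -0.04 and 0.02 on the 4 arrays, but on Whi3-dRRM-TAP array 1 it was above background in neither channel and its 7 spots ran from -1.80 to 1.21. AFR1, which acts in projection formation and receptor regulation, had 1.31 and 0.73 in Whi3-TAP against 0.19 and 0.76, and the groups overlapped. MSG5, a phosphatase of Fus3, had 0.87 and 0.58 against 0.65 and 0.10 and overlapped as well.

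BAR1 (YIL015W), the secreted protease that degrades α-factor, had the lowest net log ratio of the set. Its log2 ratios were 0.41 and -0.15 in Whi3-TAP and 1.67 and 0.77 in Whi3-dRRM-TAP. The groups did not overlap, and the net log ratio was -1.09 ± 0.24 (SD, n = 2; limma adjusted p = 0.0817), or -0.65 without Whi3-dRRM-TAP array 1. The BAR1 spots were saturated, so these ratios are compressed to an unknown extent. In the immunoprecipitate 9.50% and 89.2% of pixels were saturated in Whi3-TAP and 66.0% and 89.2% in Whi3-dRRM-TAP. In total RNA the shares were 13.2%, 86.2%, 0.00% and 82.5% in the same order. Because the immunoprecipitate of both control arrays was mostly saturated, no fold is given for BAR1.

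**Figure D4:**
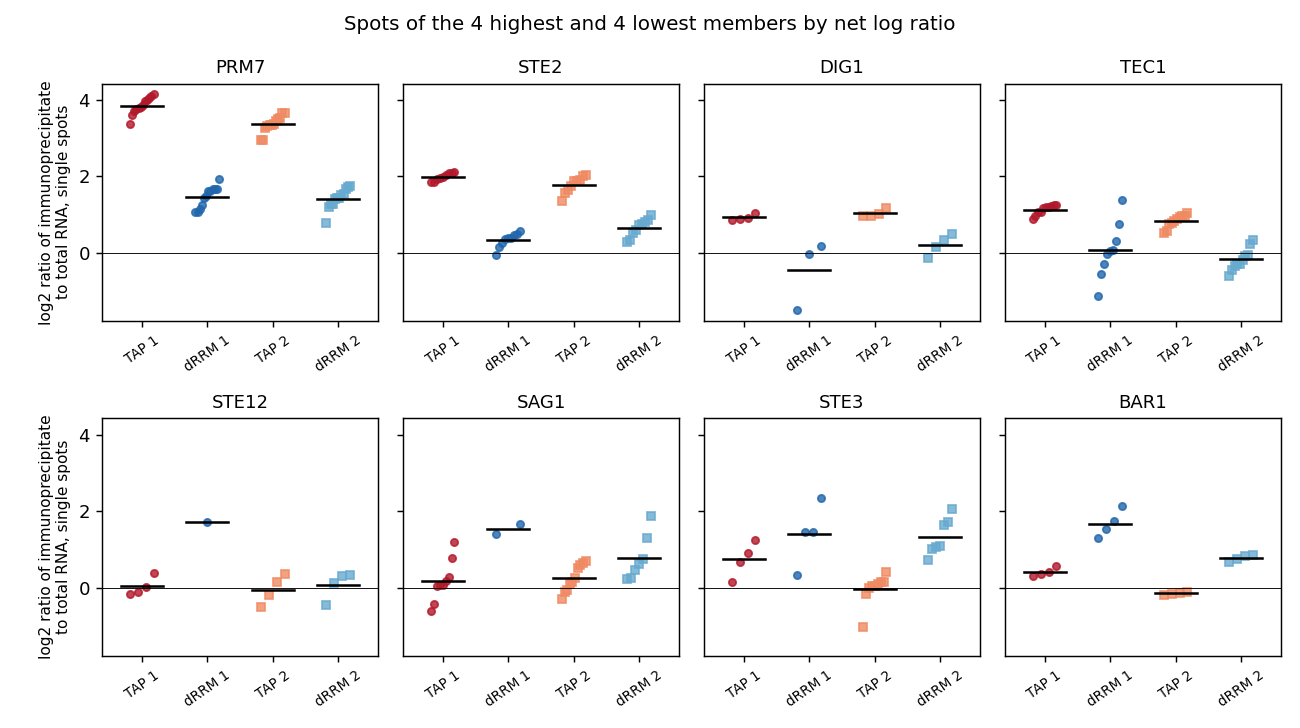
Log2 ratio of immunoprecipitate to total RNA of every kept spot (points) and their mean (black line) on each array for the 4 genes of highest and the 4 of lowest net log ratio (TAP, Whi3-TAP; dRRM, Whi3-dRRM-TAP; numbers are experiments). PRM7 keeps 12 spots on each array with no overlap between the groups, while the Whi3-dRRM-TAP array 1 value of STE12 is 1 spot.

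Among the genes of a-factor, its export and the agglutinins, the exporter STE6 was higher on both Whi3-TAP arrays than on both control arrays, while for AGA1 and MFA2 the control arrays differed from each other by more than the strains did. STE6 had log2 ratios of 0.45 and 0.67 in Whi3-TAP and 0.30 and -0.06 in Whi3-dRRM-TAP, a net log ratio of 0.44 ± 0.41 (SD, n = 2; limma adjusted p = 0.303). AGA1, the anchor subunit of a-agglutinin, had 1.35 and 1.30 in Whi3-TAP, close to each other, but 1.70 and 0.28 in Whi3-dRRM-TAP, where the first value is a single spot of 12. MFA2 had 0.61 and 0.57 in Whi3-TAP and 0.96 and -0.47 in Whi3-dRRM-TAP. The net log ratios of AGA1 and MFA2 therefore took opposite signs, -0.36 and 1.02 for AGA1 and -0.35 and 1.04 for MFA2. Without Whi3-dRRM-TAP array 1 the net log ratio was 1.05 for AGA1 and 1.06 for MFA2. Without Whi3-dRRM-TAP array 2 it was -0.38 for AGA1 and -0.37 for MFA2.

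MFA1, AGA2 and ASG7 overlapped between the strains, and SAG1 did not. MFA1 had -0.22 and -0.32 against 0.65 and -0.57. AGA2 had 0.62 and 0.26 against 0.41 and 0.35. ASG7, which helps to silence signalling after mating, had 0.74 and 0.90 against 1.03 and 0.78. SAG1, a gene of α cells, had 0.17 and 0.24 in Whi3-TAP and 1.53 and 0.78 in Whi3-dRRM-TAP, with a net log ratio of -0.95 ± 0.58 (SD, n = 2; limma adjusted p = 0.132) on a total RNA signal that was not above background on any array. It was -0.58 without Whi3-dRRM-TAP array 1, -0.43 with no background correction and -0.34 with all spots kept. The probes of MFA1 and MFA2, which encode near-identical peptides, may share signal.

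Among the fusion genes and the other pheromone-induced genes with a value on all 4 arrays, PRM7 alone was higher on both Whi3-TAP arrays than on both control arrays. FUS1, a membrane protein of the fusing cells, had log2 ratios of 0.39 and 0.22 in Whi3-TAP and 0.65 and 0.82 in Whi3-dRRM-TAP. Its control values rested on 2 spots on array 1 and 3 on array 2, where the spots ran from 0.26 to 1.86. FIG1, a membrane protein needed for calcium influx in mating, had 0.48 and 0.49 against 0.81 and 1.06. For both genes the Whi3-TAP values were the lower group, with net log ratios of -0.43 ± 0.24 and -0.45 ± 0.17 (SD, n = 2). FIG2, a cell wall adhesin, had 0.97 and 1.33 against 1.90 and 1.01, and it rested on 1 spot on Whi3-dRRM-TAP array 1. PRM3 (nuclear fusion) had 0.09 and 0.11 against -0.12 and 1.21, PRM5 had -0.39 and -0.24 against 0.29 and -0.52, and PRM8 had 0.34 and 0.33 against 0.51 and -0.14, all overlapping. Of the genes with a value on 3 arrays, FUS2 (0.34 and 0.22 in Whi3-TAP, -0.08 on Whi3-dRRM-TAP array 2) and PRM4 (0.59 and 0.67, -0.16) were higher in Whi3-TAP, PRM1 (0.23 and 0.49, 0.92) was lower, and PRM9 had 0.52 and 0.23 against 0.21 on Whi3-dRRM-TAP array 1. PRM2 and PRM6 had a value on 1 array each, and PRM10 was not analysed here. PRM8 and PRM9 belong to a family of near-identical copies, so signal cannot be assigned to either with certainty.

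Each strain's own ratio is normalized within its array, so it asks which RNAs came down more over total RNA than most genes of similar signal. A dye effect stays in it. In Whi3-TAP, limma called 10 of the 33 genes higher than 0, against 10.4% of all genes, and 1 lower, against 8.94%. The genes called higher were PRM7 (mean log2 ratio 3.6 ± 0.34), STE2 (1.88 ± 0.15), AGA1 (1.32 ± 0.03), FIG2 (1.15 ± 0.26), AFR1 (1.02 ± 0.41), DIG1 (0.98 ± 0.07), TEC1 (0.98 ± 0.21), SST2 (0.85 ± 0.02), ASG7 (0.82 ± 0.11) and FUS3 (0.59 ± 0.09; SD, n = 2 each), with limma adjusted p from 0.0045 for PRM7 to 0.0491 for FUS3. GPA1 was the gene called lower (-0.70 ± 0.02, adjusted p = 0.0329). Beside GPA1, the lowest means belonged to STE11 (-0.48), STE18 (-0.39), PRM5 (-0.31) and MFA1 (-0.27), none of them called. For 4 of the 10, total RNA was above background on no Whi3-TAP array, so their immunoprecipitate was at least 2.32-fold (AGA1), 1.86-fold (FIG2), 1.78-fold (SST2) and 1.62-fold (ASG7) over total RNA.

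In Whi3-dRRM-TAP, limma called 9 of the 33 genes higher than 0 (13.6% of all genes) and 1 lower (9.22%). The genes called higher were FIG2 (1.45 ± 0.63), PRM7 (1.44 ± 0.03), STE3 (1.36 ± 0.05), BAR1 (1.22 ± 0.63), SAG1 (1.16 ± 0.53), FIG1 (0.93 ± 0.18), ASG7 (0.90 ± 0.17), FUS1 (0.74 ± 0.12) and STE20 (0.71 ± 0.19; SD, n = 2 each), with limma adjusted p from 0.0117 for PRM7 to 0.0327 for STE20. STE18 was the gene called lower (-0.88 ± 0.07, adjusted p = 0.0185), and next to it lay GPA1 (-0.30), FUS3 (-0.26), KSS1 (-0.20) and DIG1 (-0.12). PRM7, FIG2 and ASG7 were called higher in both groups. STE3 was above background in neither channel of either control array, so its call compares signals within background. For ASG7, SAG1 and FIG1 total RNA was above background on no control array, and the immunoprecipitate was at least 1.53-fold, 1.63-fold and 1.20-fold over it. The α-specific genes STE3 and SAG1 were thus among those with the highest control ratios although their total RNA was not above background, and the part of dim total RNA in those ratios was not tested. Without Whi3-TAP array 1 or 2, no gene of the set was called in Whi3-TAP, where a single array was left, and the count in Whi3-dRRM-TAP was 15 of 34 without Whi3-dRRM-TAP array 2 (1106 of all 4334 genes), 0 without Whi3-TAP array 1 (69 of 4337) and 2 without Whi3-TAP array 2 (126 of 4301).

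Transcript levels in the strains were compared in the Cy5 channel, normalized between arrays. No gene of the set differed at a limma adjusted p of 0.05, and neither did any other gene (0% in each direction, smallest adjusted p = 0.22). At an unadjusted p under 0.05, 2 genes of the set were higher in Whi3-TAP and 1 was lower, against 7.47% and 4.82% of all genes. The largest differences were those of FUS3, FUS1 and FIG2. Log2 total RNA of FUS3 was 10.94 and 11.21 in Whi3-TAP and 10.65 and 9.75 in Whi3-dRRM-TAP, a difference of 0.87 ± 0.82 (SD, n = 2; adjusted p = 0.38) that became -0.19 when spots with a negative quality flag were kept. FUS1 was at 8.74 and 8.91 against 9.21 and 9.81, a difference of -0.68 ± 0.30 (adjusted p = 0.36), with total RNA above background on Whi3-dRRM-TAP array 2 only. That difference was -0.07 with all spots kept and ran from -1.03 to -0.40 with 1 array left out. On Whi3-dRRM-TAP array 2, 1 of the 3 FUS1 spots was bright, at 4317 in raw total RNA signal beside 696 and 451. With the median of the spots the FUS1 difference was -0.60. FIG2 was at 9.18 and 9.40 against 9.0 and 10.86, a difference of -0.65 ± 1.16 (adjusted p = 0.52). The last value came from 1 bright spot of 3, at 25997 in raw total RNA signal beside 720 and 786, and with the median of the spots the difference was 0.24. For the genes of high net log ratio, total RNA differed by 0.57 ± 0.56 (PRM7), 0.32 ± 0.03 (STE2), -0.25 ± 0.07 (DIG1) and -0.21 ± 0.13 (TEC1), none of which passed the test. DIG1, TEC1 and PRM7 were not above background in total RNA on Whi3-dRRM-TAP array 1, and SST2 was so on no array.

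A second list of 35 genes that act in the pathway, in pheromone maturation or in mating was counted beside the set, and 29 of them had values on all 4 arrays. Their median net log ratio was 0.02. CDC24 and STE24 lay above the upper limit, MF(ALPHA)1 below the lower one, and none passed limma at an adjusted p of 0.05. STE24, a protease that matures a-factor, had log2 ratios of 1.42 and 1.34 in Whi3-TAP and -0.19 and 0.27 in Whi3-dRRM-TAP, a net log ratio of 1.33 ± 0.38 (SD, n = 2; limma adjusted p = 0.0752). RCE1 (the other protease) and STE14 (the methyltransferase), picked from the enzymes that act on the same CAAX end of a-factor, had net log ratios of 0.95 and 0.93. Both Whi3-TAP arrays were higher than both control arrays for each, as for 10 of the 29 genes and 26.6% of all genes. Like RCE1 and STE14, RAM1 and RAM2, which are on the same list, lay past neither limit. CDC24, the exchange factor of Cdc42 in polarised growth, had 0.38 and 0.38 against -1.24 and -1.34, with a net log ratio of 1.67 ± 0.08 (adjusted p = 0.0678), but its total RNA was above background on no array and its immunoprecipitate was above it in Whi3-TAP only, at least 1.10-fold higher. MF(ALPHA)1 had 0.27 and 0.52 against 2.94 and 0.51, the high value being 1 spot. In Whi3-TAP 4 of the 29 were called higher (10.4% of all genes) and 3 lower (8.94%), and in Whi3-dRRM-TAP 1 higher (13.6%) and 2 lower (9.22%), so the Whi3-TAP counts are near the background shares. The probe of MATALPHA2 was above background in total RNA on 3 arrays and that of MATALPHA1 on none. The a mating-type locus is known to carry a stretch identical to part of the α2 gene, and that probe cannot separate them.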

How the data were processed

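RNA of 2 Whi3-TAP and 2 Whi3-dRRM-TAP samples was hybridised to 4 two-colour spotted arrays of yeast coding probes. The values deposited by the authors are scanner output, with mean foreground and median background intensity per spot and channel, not normalized. The percent of saturated pixels per spot is as deposited by the scanner software. A deposited table of log2 ratios, made by the authors from the same arrays, was used as an alternative. Its column medians were 0.25 and 0.22 in Whi3-TAP and 1.08 and 0.52 in Whi3-dRRM-TAP, so it is not centred as here. The authors' methods name background subtraction, loess and averaging of spots, and whether those medians were left after loess is unknown here.

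Background was corrected with normexp (offset 50), arrays were normalized by loess and spots of a probe were averaged, leaving out negative quality flags (limma 3.58.1, R 4.3.3). Only genes with values on 4 arrays were tested. Net log ratios were fitted with the experiment as a block, since the study's methods subtract the control within each experiment, total RNA was fitted likewise, and each group's ratio against 0 with none. P-values were adjusted by Benjamini-Hochberg over 4295 genes at 0.05. Same-numbered arrays deviated together (r = 0.22 over genes). Total RNA was scaled with Aquantile over the tested genes. The biological replicates are as the study describes them. P-values rest on the spread between these samples, which limma pools for each gene with that of all genes. For the net log ratio the fit had 1 residual and 3.17 prior degrees of freedom. "At least" folds set the brighter mean against the lowest signal above background, or the dim probe's own if higher. The fits were tested on simulated data. The double-stranded probes do not separate strands. Every listed gene is accounted for by role, with array values for those past the limit and at either end. The genes and lists were chosen with earlier results of these data known. Alternatives were background correction, spot filters, dim genes, normalization, the block, a trend in the prior and each array left out. Spot medians, a minimum of 2 spots and Aquantile over all spots were added after seeing the data. Figures were drawn with matplotlib 3.10.9.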

Additional observations from a re-analysis of the deposited data

Results flagged for a closer look

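For 5 genes both Whi3-TAP arrays lay on one side of 0 and both Whi3-dRRM-TAP arrays on the other in the log2 ratio of immunoprecipitate over total RNA, a pattern found in 16.9% of all 4295 genes. SST2 (net log ratio 0.94), FUS3 (0.85), KSS1 (0.39) and KAR4 (0.29) were positive in Whi3-TAP, and STE50 (-0.64) was negative. The difference itself was tested with limma, and none passed (adjusted p = 0.0886, 0.0966, 0.275, 0.418 and 0.238 in that order).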

How the results depend on the processing

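PRM7 and STE2 were past the upper limit of the net log ratio in 14 of 14 alternatives and DIG1 in 11. Those counts include settings that could not change the outcome. Dropping the block and adding the intensity trend alter neither the net log ratio nor the limit. With dim genes left out, or with at least 2 spots, the net log ratios were unchanged and only the limit could move. Limma calls depended on the settings. Genes of the set called higher are given here with the count over all genes in brackets. They numbered 2 with no replicate block (71 of 4295), 6 with no background correction (341 of 4295) and 8 with all spots kept (534 of 5738). They numbered 1 with dim genes left out (53 of 3931), 1 with median centring (54 of 4295) and 1 with the deposited log ratios (62 of 3477). They numbered 5 with an intensity trend (275 of 4295), 3 with spot medians (156 of 4295) and 5 with at least 2 spots (257 of 3234). Genes called lower numbered 1 with no background correction (333), 3 with all spots kept (517) and 4 with the deposited log ratios (400). They numbered 1 with spot medians (207) and 1 with at least 2 spots (263). Calls of the net log ratio with 1 array left out are not listed, since that fit had no block and 1 group was a single array. Against 0, calls in Whi3-TAP ranged from 0 to 15 and in Whi3-dRRM-TAP from 0 to 15 with 1 array left out, a fit that assumes the lone array varies like the others, and the deposited log ratios gave 18 of 27 in Whi3-dRRM-TAP (1423 of 3477). With 1 array left out, the calls against 0 over all genes rose and fell together with those of the set in both strains. The number of genes tested also differed between those fits. The ranges are therefore not particular to the set. Aquantile over all spots called 1 gene of the set in total RNA (86 of all genes), with the median of all genes shifted by 0.31. The net log ratio of AGA1 was -0.048 with median centring, -0.43 with the deposited log ratios and -0.38 to 1.05 with 1 array left out, and that of MFA2 -0.16, -0.54 and -0.37 to 1.06. Over all genes the median net log ratio was -0.21 with median centring and -0.48 with the deposited log ratios, against -0.09 in the main fit. Total RNA of FUS3 was -0.19 with all spots kept, and that of FIG2 0.24 with spot medians and -1.72 to 0.28 with 1 array left out. The cause was not tested. Signal near background limits the ratios of dim genes. A comparison by 3′ UTR probes was not run, since 0 genes of the set have one.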
